A study of Mus musculus with 12 samples.

Results

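Gdpd3 and 4 relatives of the glycerophosphodiester phosphodiesterase family, Gdpd1, Gdpd2, Gdpd5 and Gde1, were followed in mouse liver. Gdpd3 was chosen by its log2 signal, which was far lower in both other groups than in wild type, so its own differences are given as a description with no test. The other 4 genes were taken as its named relatives. All 5 genes were on the array, with 1 probe each, out of 34607 gene names, and 4 of the 5 could be measured well enough to be tested, among 20572 tested genes.

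The arrays held RNA from whole-liver homogenates of 12 mice, with 1 one-colour Agilent array per mouse and 4 mice in each of 3 groups. The groups were wild type mice (129/Sv x C57BL/6), mice labelled E2f1-/- and mice labelled E2f2-/-. The labels give a strain for the wild type mice, and none for the knockouts, and they do not say which part of either gene was deleted. All 3 groups received 25 mg/kg of the liver carcinogen diethylnitrosamine (DEN) into the peritoneum once, 14 days after birth. They were weaned at 1 month and then spent 32 weeks on a diet in which fat supplied 60% of the calories. Livers were taken at 9 months, once food had been withheld for 4 hours. No group without DEN or on a normal diet was analysed here, so the levels describe livers at risk of tumours, and the labels do not say whether tumour tissue was part of a sample. For E2f1 knockout mice 1 label field, the source, speaks of vehicle and chow, against their titles, characteristics and protocol, so each comparison with that group carries this conflict.

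Enzymes of this family cut glycerophosphodiesters, the backbones that remain when phospholipids lose fatty acids, and release an alcohol such as choline, inositol or ethanolamine. Gdpd3 and Gdpd1 are lysophospholipase D enzymes of internal membranes, which turn lysophosphatidylcholine into lysophosphatidic acid, a signalling lipid, and can release N-acylethanolamines. Gde1 cuts glycerophosphoinositol and glycerophospho-N-acylethanolamines, Gdpd2 and Gdpd5 are cell surface enzymes linked to the release of GPI-anchored proteins, and Gpcpd1 is a cytosolic enzyme that breaks down glycerophosphocholine. E2f1 and E2f2 encode transcription factors best known for binding the promoters of cell cycle genes.

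The design of the 2 probes with the largest and the steadiest difference is shown because each result rests on a single 60-base oligonucleotide. Both are printed 5′ to 3′ as the array files give them, in lower case with no part marked.
Gdpd3 probe: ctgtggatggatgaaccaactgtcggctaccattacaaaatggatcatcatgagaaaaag
Gde1 probe: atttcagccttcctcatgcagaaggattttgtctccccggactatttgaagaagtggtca
The Gdpd3 probe (A_51_P426875) lies on the plus strand of chromosome 7 in mm9, from 133914520 to 133914693, and the Gde1 probe (A_51_P294515) on the minus strand of chromosome 7, from 125832643 to 125835134. Their 60 bases cover 174 and 2492 bases of genome, so each crosses at least 1 splice junction. They detect spliced RNA at that junction and say nothing about other isoforms. The probes of Gdpd1 (chromosome 11, 86847492 to 86847551), Gdpd2 (chromosome X, 97934160 to 97934219) and Gdpd5 (chromosome 7, 106609102 to 106609161) each lie in 1 unbroken stretch of genome.

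Levels are log2 processed signal minus the 75th percentile of the same array, so 0 stands for a probe at that percentile. The 75th percentile lay between 107.7 and 211.7 signal units, and 44.62% to 54.4% of probes were well above background, the scanner software's own detection call. Arrays correlated at 0.953 to 0.988 within groups and 0.928 to 0.98 between groups. Each of the 4 slides held 1 array of every group, and all mice of a group shared 1 position on the slide, so group and slide position cannot be told apart. The E2f1 probe was lower in the E2f1 knockout livers (-0.83 ± 0.19 SE on the log2 scale, limma adjusted p = 0.0106). The E2f2 probe was not shown to be lower in the livers labelled E2f2 knockout (-0.29 ± 0.21 SE, adjusted p = 0.361), while it was lower in the E2f1 knockout livers (-1.51 ± 0.21 SE, adjusted p = 0.00136). Whether these probes lie in the deleted parts is not known here, and the third group is called E2f2-labelled throughout.

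Gdpd3, the lysophospholipase D gene chosen for this pattern, went from a clear signal in wild type livers to the edge of detection in both other groups. The processed signal in wild type replicates 1 to 4 was 3185, 2770, 888.2 and 1122 units. In the E2f1 knockout livers it was 8.977, 11.16, 17.97 and 19.81 units, and in the E2f2-labelled livers 11.06, 15.4, 17.26 and 8.512 units. The groups do not overlap: the dimmest wild type array was more than an order of magnitude above the brightest of the other 8. The probe was well above background on 4 of 4 wild type arrays, on 2 of 4 E2f1 knockout arrays and on 2 of 4 E2f2-labelled arrays. In bulk tissue, fewer cells that express a gene and less RNA per cell cannot be told apart.

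On the relative log2 scale Gdpd3 averaged 3.45 ± 0.65 (SD, n = 4) in wild type, -3.26 ± 0.67 (SD, n = 4) in E2f1 knockout and -3.26 ± 0.57 (SD, n = 4) in E2f2-labelled livers. The differences from wild type were -6.71 and -6.70, or 105-fold and 104-fold lower. Of all tested genes, 6.34% and 6.99% were at least 2-fold lower, and 6.98% and 7.48% lay below wild type without overlap, in the E2f1 knockout and the E2f2-labelled livers respectively. Among the 20572 tested genes this was rank 1 of the falls in the E2f1 knockout livers, where the next gene, Tmc5, differed by -5.58. It was rank 2 in the E2f2-labelled livers, between Trim12a at -7.60 and Klrb1b at -6.46. These ranks restate the choice of the gene and support nothing. The difference between the E2f2-labelled and the E2f1 knockout group was 0.01 on the log2 scale, and their values interleave. Within the 4 slides the E2f1 knockout array was lower than its wild type neighbour by amounts from -7.99 to -5.34, and the E2f2-labelled array by amounts from -7.72 to -5.57.

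The size of the Gdpd3 difference depends on how background was treated, since 4 of the 8 arrays outside wild type were not well above it. With normexp background correction and an offset of 50, which lifts signals near background, the differences were -4.32 and -4.26. All other settings gave values between -7.03 and -6.43 for E2f1 knockout and between -6.93 and -6.49 for E2f2-labelled livers. The fold is therefore a rough figure, and the direction was the same under each of the 21 settings.

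**Figure D1:**
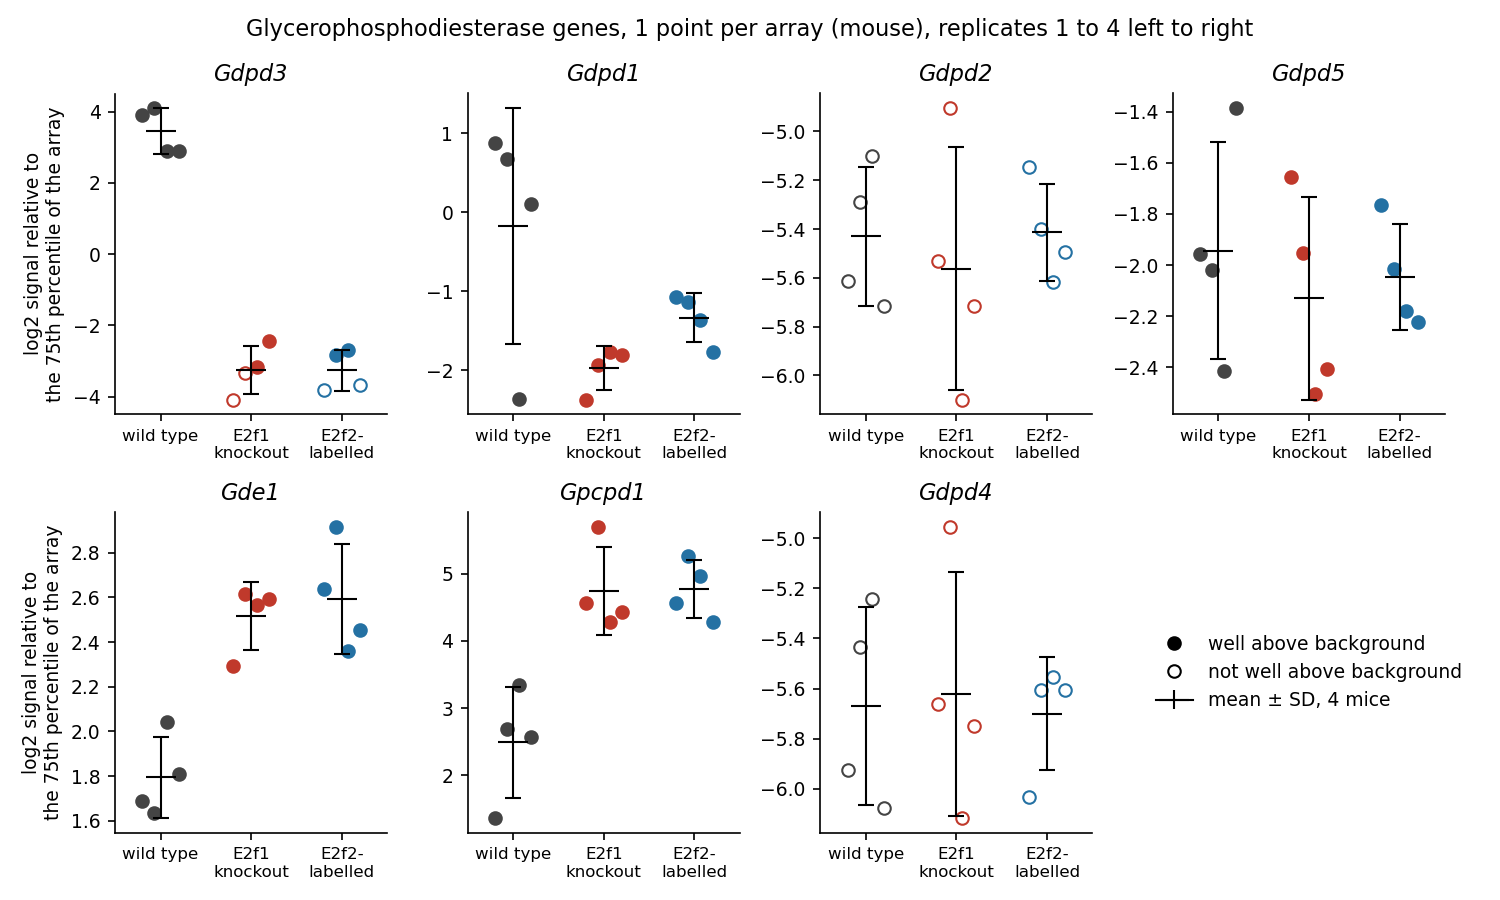
Relative log2 signal of the 7 family genes on the array, with 1 point per mouse by group, filled where the probe was well above background, and a bar for the mean ± SD of 4 mice. Gdpd3 lies between 2.88 and 4.10 in wild type and between -4.08 and -2.44 elsewhere, Gde1 and Gpcpd1 lie higher outside wild type, wild type replicate 3 is the low point of Gdpd1, and Gdpd2 and Gdpd4 have open points throughout.

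Gdpd1, the closest functional relative of Gdpd3, was lower in the E2f1 knockout livers, although 1 wild type mouse did not share the pattern. Its relative log2 level in wild type replicates 1 to 4 was 0.88, 0.68, -2.36 and 0.10. In E2f1 knockout livers it was -2.37, -1.94, -1.77 and -1.81, and in E2f2-labelled livers -1.08, -1.14, -1.36 and -1.76. Wild type replicates 1, 2 and 4 lie above all 8 other arrays, whereas wild type replicate 3 lies below all of them but 1. The probe was well above background on all 12 arrays.

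The test gave a difference of -1.80 ± 0.55 SE in the E2f1 knockout livers (95% confidence interval -3.003 to -0.592, adjusted p = 0.0389 by limma with Benjamini-Hochberg adjustment over all tested genes), or 3.48-fold lower. With normexp correction it was -1.03 (adjusted p = 0.0223). In the E2f2-labelled livers the difference was -1.16 ± 0.55 SE (-2.37 to 0.05, adjusted p = 0.159), which did not pass. The direct comparison of E2f2-labelled with E2f1 knockout livers gave 0.64 ± 0.55 SE (adjusted p = 0.782), so the 2 groups were not shown to differ. These calls depended on single mice. Without wild type replicate 3 the differences were -2.53 (adjusted p = 6.19e-05) and -1.89 (adjusted p = 0.00033). With it, the E2f1 knockout call was at the threshold: adjusted p was above 0.05 when any of wild type replicates 1, 2 and 4 (0.105, 0.114 and 0.0811), E2f1 knockout replicates 1 to 4 (0.0833, 0.071, 0.0749 and 0.0706) or E2f2-labelled replicates 1 to 3 (0.0505, 0.0518 and 0.0501) was left out. Within slide 3, which holds that mouse, the E2f1 knockout array was higher by 0.59 and the E2f2-labelled array by 0.99, and on the other slides both were lower, by -3.25 to -1.81.

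Gde1, the glycerophosphoinositol enzyme, was higher in both groups than in wild type. Its relative log2 level was 1.69, 1.63, 2.04 and 1.81 in wild type replicates 1 to 4. It was 2.29, 2.62, 2.57 and 2.59 in the E2f1 knockout and 2.64, 2.92, 2.36 and 2.45 in E2f2-labelled livers. Every one of these 8 arrays lies above the highest wild type array, as was the case for 14% of tested genes in the E2f1 knockout and 15.1% in the E2f2-labelled livers. The rise was 0.72 ± 0.16 SE in E2f1 knockout (1.65-fold, 95% confidence interval 0.38 to 1.07, adjusted p = 0.00965) and 0.80 ± 0.16 SE in E2f2-labelled livers (1.74-fold, 0.45 to 1.15, adjusted p = 0.00614). Both calls held under each of 23 alternative settings, with differences of 0.54 to 0.81 and 0.63 to 0.95. The E2f2-labelled minus E2f1 knockout difference was 0.08 ± 0.16 SE (adjusted p = 0.94).

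Gdpd5, a surface enzyme, was measured on all 12 arrays and showed no difference that passed the test. Wild type levels were -1.96, -2.02, -2.42 and -1.39. They were -1.66, -1.95, -2.50 and -2.41 in E2f1 knockout and -1.77, -2.02, -2.18 and -2.22 in E2f2-labelled livers, so the 3 groups overlap. The differences were -0.19 ± 0.24 SE (-0.71 to 0.34, adjusted p = 0.651) and -0.10 ± 0.24 SE (-0.63 to 0.42, adjusted p = 0.799), and with normexp correction they turned to 0.01 and 0.06.

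Gdpd2, the other surface enzyme among the members, was not well above background on any of the 12 arrays. Its signal lay between 2.048 and 4.377 units, so no level and no fold are given, and it was not tested. Of the 3 members tested other than Gdpd3, 2 were called in the E2f1 knockout livers, 1 higher and 1 lower, against 20.3% of all tested genes (12.8% higher and 7.48% lower). In the E2f2-labelled livers 1 of 3 was called, as higher, also against 20.3% of all tested genes (12.5% higher and 7.85% lower). None of the 3 was called between E2f2-labelled and E2f1 knockout livers, where limma called 1.59% of tested genes and where none of the 3 had an unadjusted p under 0.05 (0.272, 0.735 and 0.644).

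The 2 further family genes on the array were described for comparison. Gpcpd1, the glycerophosphocholine phosphodiesterase, rose from 1.36, 2.68, 3.35 and 2.57 in wild type to 4.57, 5.70, 4.28 and 4.43 in E2f1 knockout and 4.57, 5.27, 4.96 and 4.28 in E2f2-labelled livers. Neither group overlaps wild type, and the differences were 2.25 ± 0.41 SE (4.77-fold, adjusted p = 0.00439) and 2.28 ± 0.41 SE (4.86-fold, adjusted p = 0.00391). Of all tested genes, 14% and 15.1% lay above wild type without overlap, and 12.8% and 12.5% were called higher. For Gpcpd1 the calls were also set against the alternative settings. Both Gpcpd1 calls held in 22 of 22 of these. Gdpd4 was not well above background on any array. 

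The shift of the whole array matters for small differences. The median tested gene was above wild type by 0.12 in the E2f1 knockout and by 0.15 in the E2f2-labelled group, and by 0.03 and 0.07 after quantile normalization. Of called genes, 63.1% and 61.4% were higher on the main scale, against 50.4% and 49.5% with quantile normalization, 50.9% and 47.6% with median centring and 50.3% and 49.5% in the authors' deposited matrix. The rises of Gde1 and Gpcpd1 and the lower Gdpd1 level exceed these shifts.

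Markers of liver tumours were on average much higher in wild type livers, a step between groups that Gdpd3 shared, and Gdpd1 except in wild type replicate 3. Within the E2f1 knockout group replicate 1 had the highest tumour marker mean (0.98) and the lowest Gdpd3 and Gdpd1 levels (-4.08 and -2.37). Gdpd3 was not well above background on that array. In wild type replicates 1 to 4 the Gdpd1 levels (0.88, 0.68, -2.36 and 0.10) ranked in the same order as the tumour marker means. The Gdpd3 levels (3.91, 4.10, 2.88 and 2.90) did so except that replicates 1 and 2 changed places. Of 13 tested tumour and oncofetal genes, 11 were lower in each of the other groups, while the other gene on the list, Igf2, was not well above background on any array. Of all tested genes, 7.48% and 7.85% were called lower. The marker lists were chosen with earlier results of these data known, so their counts are a description and give no independent support. The mean level of the 13 genes was 4.45, 4.38, 1.33 and 3.93 in wild type replicates 1 to 4. It ran from -0.74 to 0.98 in E2f1 knockout and from -0.65 to 0.29 in E2f2-labelled livers. Of 9 tested proliferation genes, 8 were lower in each group, and the mean of the 9 ranged from -0.53 to 0.60 in wild type mice, against -2.48 to -1.05 in E2f1 knockout and -2.49 to -1.89 in E2f2-labelled mice. Among the lower genes, Top2a was not well above background on any array outside wild type, so it passed the detection filter through wild type alone. The part of tumour tissue in the Gdpd3 and Gdpd1 values was not tested. Wild type replicate 3 had the lowest tumour marker mean among wild type mice. It also had the lowest Gdpd1 level of that group, at -2.36, and the lowest Gdpd3 level, at 2.88. That Gdpd3 level was close to the 2.90 of replicate 4 and above all 8 arrays of the other groups.

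**Figure D2:**
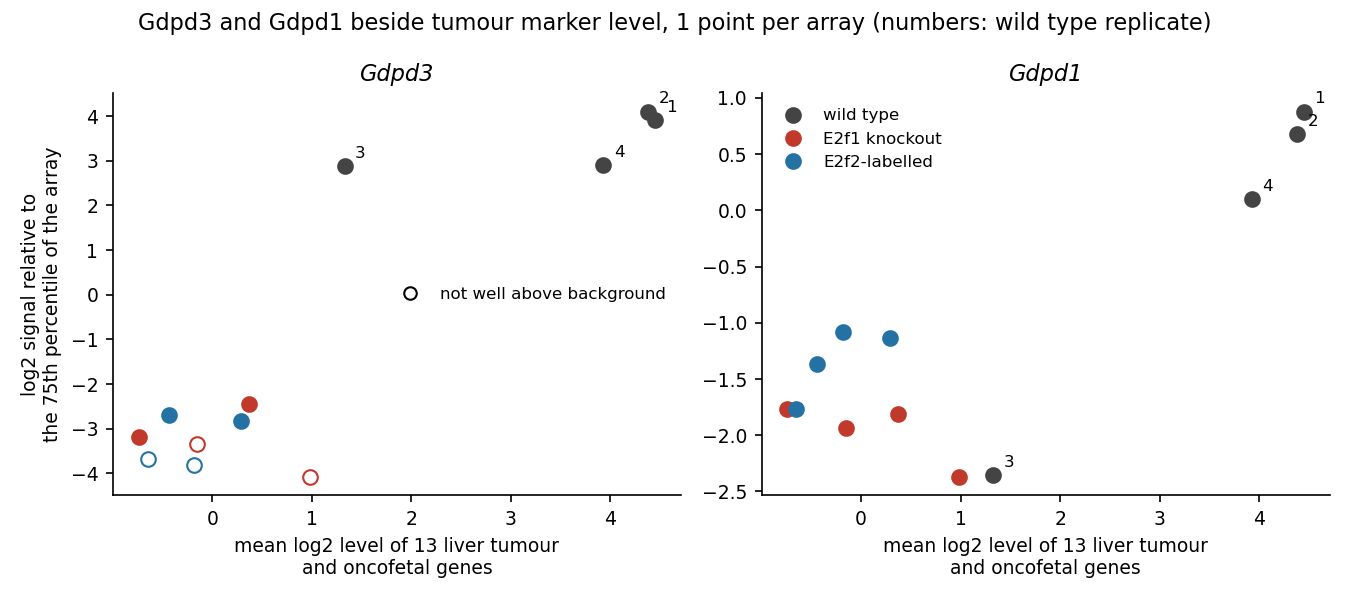
Relative log2 level of Gdpd3 (left) and Gdpd1 (right) against the mean log2 level of 13 liver tumour and oncofetal genes, with 1 point per mouse, open where the probe was not well above background, and wild type replicates numbered. Wild type replicate 3, at a tumour marker mean of 1.33, is the lowest wild type mouse for both genes. It lies above the other groups for Gdpd3 (2.88) and among them for Gdpd1 (-2.36).

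Other cell types were read from marker lists in the same way. The mean of 14 hepatocyte genes ran from 7.62 to 8.21 in wild type mice, 8.44 to 8.87 in E2f1 knockout mice and 7.97 to 8.49 in the third group, with 6 and 4 of 14 called higher and 0 lower. Of all tested genes, 12.8% and 12.5% were called higher and 7.48% and 7.85% lower, against which the counts of each marker list can be read. Of 12 macrophage genes, 1 was higher and 3 were lower in E2f1 knockout, and 1 higher and 4 lower in E2f2-labelled livers, with means of 0.77 to 2.83, 1.54 to 2.31 and 0.84 to 2.24 in the order wild type, E2f1 knockout and E2f2-labelled. Clec4f, a marker of resident liver macrophages, was higher (1.86 ± 0.41 SE and 1.37 ± 0.41 SE, adjusted p = 0.00926 and 0.0338), while Timd4 and Vsig4, also of resident macrophages, had differences of 2.22 and 2.27 and of 1.95 and 1.67 that did not pass (adjusted p = 0.0962 to 0.163). Itgax, Trem2 and Gpnmb were lower in both comparisons, and Cd68 in E2f2-labelled livers. Gpnmb was not well above background on any array outside wild type, so it passed the detection filter through wild type alone, which favoured a fall. For bile duct cells 1 of 6 tested genes was lower in each comparison (means -1.31 to -0.24, -1 to -0.38 and -1.05 to -0.58), and the duct marker Epcam was not well above background in any group. For squamous epithelium 5 of 10 genes were tested, with 2 lower in E2f1 knockout and 1 higher in E2f2-labelled livers (means -0.62 to 0.05, -1.22 to -0.34 and -0.38 to 0.04). Trp63 (-2.58) and Krt5 (-0.997) were the 2 lower genes and Lor (1.58) the higher one, and Sprr1a and Sfn did not pass. Ivl, Sprr2a1 and Dsg3 were not well above background on any array, Krt14 was on 4 arrays and Krt6a on 2. The mean of the 4 tested adipocyte genes, Cfd, Cidea, Fabp4 and Cidec, was high in E2f1 knockout replicate 1 (4.13). It ranged from -1.86 to -0.42 in the other 3 mice of its group, from 0.11 to 1.46 in wild type and from -3.15 to -1.49 in E2f2-labelled livers, where 2 of the 4 genes were lower. Adipoq and Plin1 were not well above background on any wild type or E2f2-labelled array, nor was Retn on any wild type array. Adipoq and Plin1 were each well above background on 1 array, which was in the E2f1 knockout group. In that group every gene of the list was well above background on at least 1 array. E2f1 knockout replicate 1 had the lowest Gdpd3 and Gdpd1 levels of its group (-4.08 and -2.37), although Gdpd3 was not well above background there. Neither the presence of adipocytes nor their part in the results was tested.

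Genes of the pathways that border on the family were taken from 7 lists, with 115 genes on the array and 90 tested. In E2f1 knockout livers 20 were higher and 11 lower, and in E2f2-labelled livers 19 were higher and 14 lower. Their share called was 34.4% and 36.7%, beside 20.3% of all tested genes in each comparison, and their median difference was 0.03 and 0.17, beside 0.12 and 0.15 for all genes. Wild type replicate 2 and E2f1 knockout replicates 3 and 4 carry much of these counts: without each of them in turn, 19, 17 and 17 of the 90 genes were called in E2f1 knockout livers. In E2f2-labelled livers 20 were called without wild type replicate 2 and 21 without E2f2-labelled replicate 3. The comparisons share the wild type arrays.

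Among genes that make, break down or sense lysophosphatidic acid, the product of Gdpd3 and Gdpd1, 14 were tested. In E2f1 knockout livers 1 was higher and 2 were lower (21.4% called), near the 20.3% of all tested genes. In E2f2-labelled livers 2 were higher and 4 lower (42.9%, also beside 20.3%). Enpp2, which encodes autotaxin, the secreted enzyme that makes the same product outside cells, fell by 0.82 ± 0.17 SE in E2f2-labelled livers (adjusted p = 0.00826), from 4.96 to 5.43 in wild type to 4.13 to 4.43. In E2f1 knockout livers its difference was -0.14 ± 0.17 SE (adjusted p = 0.647), and the test of E2f2-labelled against E2f1 knockout livers did not pass (-0.68 ± 0.17 SE, adjusted p = 0.0932). Plpp3, a surface phosphatase that removes lysophosphatidic acid, rose by 0.85 ± 0.16 SE and 0.70 ± 0.16 SE (adjusted p = 0.0052 and 0.0117), although the second call was lost with median centring (0.65, adjusted p = 0.0637). Pld6, a phospholipase of mitochondria, rose by 1.38 ± 0.23 SE in E2f2-labelled livers (adjusted p = 0.00255) and differed by 0.62 ± 0.23 SE in E2f1 knockout livers (adjusted p = 0.0771, and 0.0226 without wild type replicate 4). The receptor genes Lpar1 and Lpar3 were not well above background on any array, Lpar2 and Lpar4 on 1 array each, and Lpar5 and Lpar6 did not pass in either comparison.

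In the N-acylethanolamine and endocannabinoid list, 2 of 11 tested genes were higher and 2 lower in E2f1 knockout livers, and 2 higher and 3 lower in E2f2-labelled livers. That is 36.4% and 45.5% called, beside 20.3% of all tested genes. Mgll, which hydrolyses monoacylglycerols, rose by 1.42 ± 0.31 SE and 1.46 ± 0.31 SE (2.68-fold and 2.74-fold, adjusted p = 0.00911 and 0.00805). Daglb, which makes the endocannabinoid monoacylglycerol, rose by 1.15 ± 0.17 SE in E2f2-labelled livers (adjusted p = 0.00127) and differed by 0.19 ± 0.17 SE in E2f1 knockout livers (adjusted p = 0.492). The test of E2f2-labelled against E2f1 knockout livers passed (0.96 ± 0.17 SE, adjusted p = 0.0114). Ptpn22, better known as a phosphatase of lymphocytes, was lower by -1.65 ± 0.38 SE and -2.43 ± 0.38 SE (adjusted p = 0.0111 and 0.00176), and by -0.89 and -1.06 with normexp correction. Faah, which degrades N-acylethanolamines, was called higher in E2f1 knockout livers at 0.55 ± 0.17 SE (adjusted p = 0.0396), a call held in 11 of 22 alternatives and lost without wild type replicate 2, 3 or 4 (adjusted p = 0.122, 0.0657 and 0.0519), E2f1 knockout replicate 2, 3 or 4 (0.0663, 0.105 and 0.0547) or E2f2-labelled replicate 1 or 2 (0.0534 and 0.0544). In E2f2-labelled livers Faah differed by 0.43 ± 0.17 SE (adjusted p = 0.093). Napepld, which makes N-acylethanolamines by a separate route, did not pass (-0.58 ± 0.20 SE, adjusted p = 0.0627, and -0.47 ± 0.20 SE, adjusted p = 0.117), though it passed in E2f1 knockout livers without wild type replicate 3 (adjusted p = 0.0417) or E2f1 knockout replicate 3 (0.0309).

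The list for glycerophosphocholine, choline and phosphatidylcholine, which holds the substrates and products of Gpcpd1, had 8 of 18 tested genes higher and 2 lower in E2f1 knockout livers, and 6 higher and 1 lower in E2f2-labelled livers. Its share called was 55.6% and 38.9%, beside 20.3% of all tested genes, and its median difference was 0.38 and 0.47. Etnk2, an ethanolamine kinase of liver, rose by 2.00 ± 0.36 SE and 2.35 ± 0.36 SE (4.0-fold and 5.11-fold, adjusted p = 0.00409 and 0.0016). One of its 2 other probes was near its wild type level in E2f2-labelled livers (means of 0.62, 2.44 and 0.69 in the order wild type, E2f1 knockout, E2f2-labelled), so the probes disagree there. Chpt1, a cholinephosphotransferase for the last step of phosphatidylcholine synthesis, rose by 1.78 ± 0.27 SE and 1.14 ± 0.27 SE (adjusted p = 0.00199 and 0.0134). Chka, the choline kinase that is often high in tumours and dividing cells, was lower by -1.83 ± 0.38 SE and -1.63 ± 0.38 SE (adjusted p = 0.00706 and 0.0114), and its 4 probes had lower means in both groups.

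Among acyltransferases of lysophospholipids and of glycerol-3-phosphate, 2 of 15 tested genes were higher and 2 lower in each comparison. This share of 26.7% is not far from the 20.3% of all tested genes. Gpat4, a glycerol-3-phosphate acyltransferase, rose by 0.91 ± 0.19 SE and 0.85 ± 0.19 SE (adjusted p = 0.00668 and 0.0088). Agpat4, which acylates lysophosphatidic acid, was lower by -1.29 ± 0.34 SE and -1.16 ± 0.34 SE (adjusted p = 0.0203 and 0.0327). Its first call did not hold when wild type replicate 2 (adjusted p = 0.0648) or E2f1 knockout replicate 3 or 4 (0.0578 and 0.0532) was left out, and its second without wild type replicate 2 or 3 or E2f2-labelled replicate 1, 3 or 4 (0.0953, 0.0537, 0.052, 0.0757 and 0.0824). Mboat1 was lower by -0.99 ± 0.26 SE and -1.28 ± 0.26 SE (adjusted p = 0.0194 and 0.00632) with 3 and 1 of 4 arrays well above background, and neither call held with normexp correction (-0.17 and -0.16). The first also failed on leaving out wild type replicate 1 or 4 (adjusted p = 0.0529 and 0.0502) or E2f1 knockout replicate 2 or 3 (0.0526 and 0.055).

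Glycerol-3-phosphate, released by enzymes of this family, had 9 tested genes, of which 2 were higher and 0 lower in E2f1 knockout livers and 4 higher and 1 lower in E2f2-labelled livers. These are 22.2% and 55.6% called, beside 20.3% of all tested genes. Gpd1, the cytosolic glycerol-3-phosphate dehydrogenase, rose by 1.21 ± 0.27 SE and 1.14 ± 0.27 SE (adjusted p = 0.0102 and 0.013). Its relative Gpd1l rose by 0.71 ± 0.14 SE in E2f2-labelled livers (adjusted p = 0.00579, and 0.46 on the log2 scale with normexp correction) and differed by 0.29 ± 0.14 SE in E2f1 knockout livers (adjusted p = 0.166). Aqp9, the glycerol channel of hepatocytes, rose by 1.16 ± 0.34 SE and 1.41 ± 0.34 SE (adjusted p = 0.032 and 0.0138), and the first call was lost without wild type replicate 1 or 2 (0.0748 and 0.0964) or any E2f1 knockout replicate (0.0606 to 0.0692).

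Of 11 tested phospholipase A genes, 4 were higher and 1 lower in E2f1 knockout livers, and 3 higher and 1 lower in E2f2-labelled livers. That is 45.5% and 36.4% called, beside 20.3% of all tested genes. Pnpla3, a lipid droplet hydrolase tied to fatty liver, was well above background on 4 of 4 wild type arrays and on 0 of 8 others, so it was at least 4.08-fold and at least 5.21-fold lower (adjusted p = 0.00407 and 0.00167). These bounds set the wild type mean against the lowest signal that counts as well above background on each array. Pnpla3 passed the detection filter through wild type alone, so the filter favoured a fall, and its p-values rest on undetected values in the other groups. The bounds from its other probe were 2.18-fold and 2.4-fold, and with normexp correction the differences were -0.64 and -0.61. Pnpla2, the main triglyceride lipase of fat, rose by 0.72 ± 0.16 SE in E2f1 knockout livers (adjusted p = 0.0102). In E2f2-labelled livers it was called at 0.53 ± 0.16 SE (adjusted p = 0.0354), held in 12 of 22 alternatives, was 0.34 with quantile normalization (adjusted p = 0.117), and was not called without wild type replicate 1 or 2 or E2f2-labelled replicate 2, 3 or 4 (adjusted p = 0.0692, 0.107, 0.0514, 0.101 and 0.0857). Lipc, hepatic lipase, rose by 1.29 ± 0.34 SE in E2f1 knockout livers (adjusted p = 0.0203, and 0.0647 and 0.0519 without E2f1 knockout replicate 3 or 4) and differed by 0.58 ± 0.34 SE in E2f2-labelled livers (adjusted p = 0.251).

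For GPI anchors, which Gdpd2 and Gdpd5 act on, 1 of 12 tested genes was higher and 2 were lower in E2f1 knockout livers, and 0 were higher and 2 lower in E2f2-labelled livers. These shares of 25% and 16.7% lie near the 20.3% of all tested genes. Plaur, the GPI-anchored urokinase receptor, was lower by -1.77 ± 0.34 SE and -1.40 ± 0.34 SE (adjusted p = 0.00481 and 0.0134), and by -0.86 and -0.67 with normexp correction. Gpc3, a glypican that marks liver cancer and also stands on the tumour list, was lower by -5.38 ± 1.15 SE in E2f2-labelled livers (adjusted p = 0.00805), where 2 of 4 arrays were well above background, and by -3.49 with normexp correction. In E2f1 knockout livers its difference was -3.62 ± 1.15 SE (adjusted p = 0.0434), a call lost on leaving out any 1 array but wild type replicate 3 (adjusted p = 0.0516 to 0.127). Without wild type replicate 3 the differences were -5.11 and -6.87. The other Gpc3 probe was not well above background on any array, so these values rest on 1 probe. Gpld1, the GPI-specific phospholipase D of liver and plasma, rose by 0.98 ± 0.26 SE in E2f1 knockout livers (adjusted p = 0.02, 0.0614 without wild type replicate 2 and 0.0524 without E2f1 knockout replicate 4) and differed by 0.66 ± 0.26 SE in E2f2-labelled livers (adjusted p = 0.0894, and 0.0463 with the slide as a block and 0.0133 without wild type replicate 3).

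**Figure D3:**
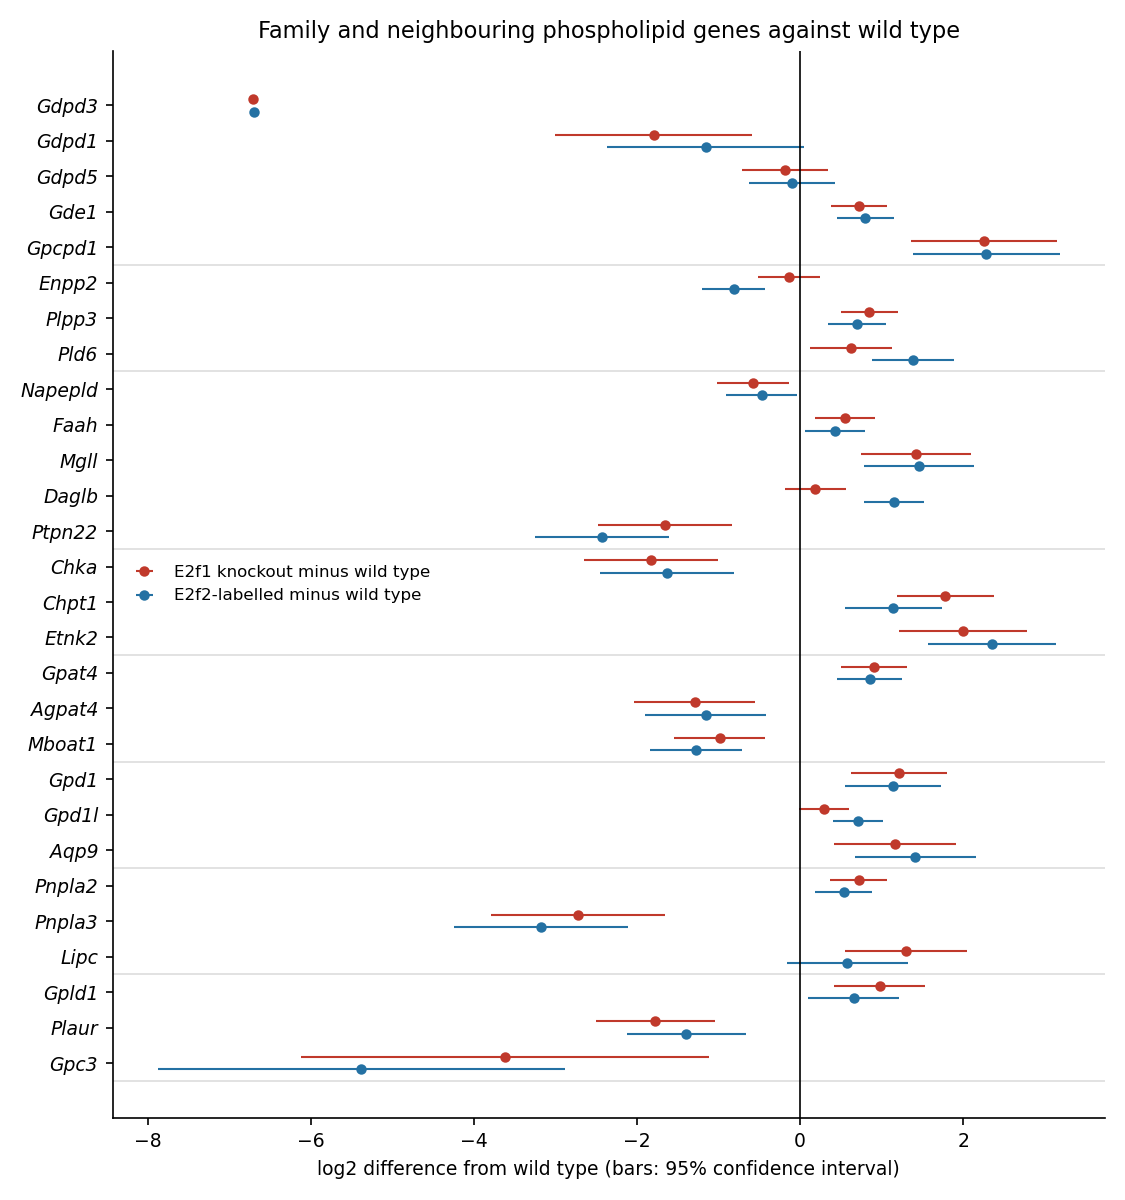
Log2 difference from wild type for the 5 family genes tested and for genes of the neighbouring pathways, separated by lines into lists, with 95% confidence intervals from the limma fit except for Gdpd3, which was not tested. Gdpd3 stands at -6.71 and -6.70, Gdpd1 at -1.80 and -1.16, and Gde1 and Gpcpd1 lie to the right of 0 in both comparisons.

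The neighbours of Gdpd3 on chromosome 7 were measured on the same arrays. In the order of RefSeq genes, 5 of the 6 nearest, 3 on each side, were on the array. Coro1a, an actin-binding protein of white blood cells, was lower by -1.85 ± 0.40 SE and -2.17 ± 0.40 SE (adjusted p = 0.00853 and 0.00414). Mapk3, which encodes the kinase ERK1 and has a probe 5.5 kb from that of Gdpd3, did not pass (-0.43 ± 0.20 SE, adjusted p = 0.146, and -0.50 ± 0.20 SE, adjusted p = 0.0922). Its E2f2-labelled difference did pass with quantile normalization, normexp, array weights and matrix values (adjusted p = 0.0346, 0.044, 0.0349 and 0.0365). A dimmer Mapk3 probe differed by -0.47 and -0.82. In E2f2-labelled livers that probe lay below wild type without overlap, as did 7.48% of tested genes. Ypel3 did not pass (0.21 and 0.44, adjusted p = 0.469 and 0.105), and its E2f1 knockout difference turned to -0.01 with quantile normalization. Its E2f2-labelled difference passed with the slide as a block (adjusted p = 0.0237). Tbx6 (-0.10 and 0.01, adjusted p = 0.834 and 0.983) and Ppp4c (-0.20 and 0.02, adjusted p = 0.433 and 0.941) did not pass, and both E2f2-labelled values turned below 0 with median centring (-0.04 and -0.03).

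Within 1 Mb of the Gdpd3 probe lay 94 other tested genes. Of these 8 were higher and 7 lower in E2f1 knockout livers, 16% against 20.3% of all tested genes, and 5 were higher and 7 lower in E2f2-labelled livers, 12.8% against 20.3%. Their medians were 0.08 and 0.18, near those of all genes. The lowest differences were those of Spn, a sialoglycoprotein of white blood cells, at -2.57 and -3.05, against -6.71 and -6.70 for Gdpd3. This window was added after the values were seen.

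**Figure D4:**
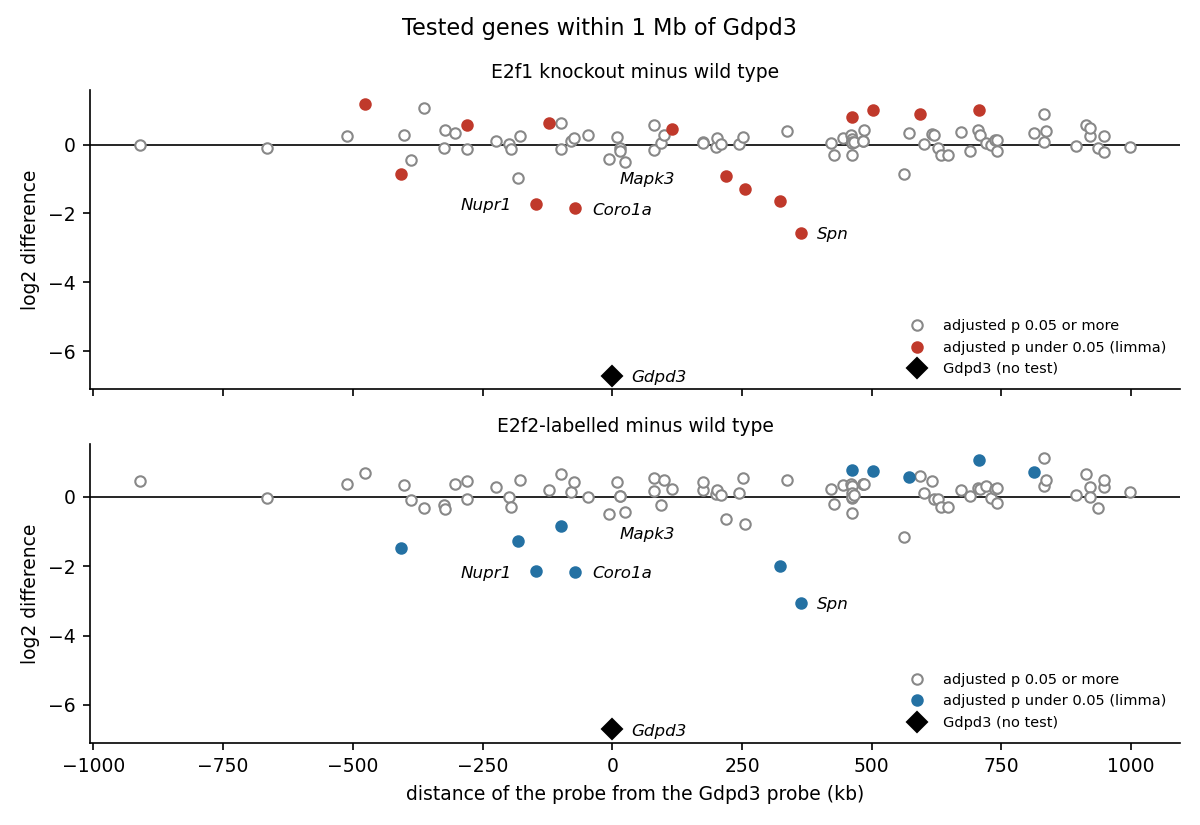
Log2 difference from wild type of tested genes within 1 Mb of the Gdpd3 probe, by distance in kb, filled where the limma adjusted p was under 0.05, with Gdpd3 as a diamond without a test. The other 94 genes lie between -2.57 and 1.18 in E2f1 knockout livers (top) and between -3.05 and 1.13 in E2f2-labelled livers (bottom).

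The stretch upstream of the Gdpd3 start is shown because E2F proteins bind promoters. It is the 250 bases before the RefSeq start in GRCm38.p6 (chr7:126766164-126766413, plus strand), a later build than that of the probes, with CG pairs in capitals.
Gdpd3 upstream: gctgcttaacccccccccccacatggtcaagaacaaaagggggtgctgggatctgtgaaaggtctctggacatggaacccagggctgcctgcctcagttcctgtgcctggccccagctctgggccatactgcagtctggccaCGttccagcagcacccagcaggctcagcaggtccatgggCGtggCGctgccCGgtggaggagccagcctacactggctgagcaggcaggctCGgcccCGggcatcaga
The E2F motifs TTTGGCGC, TTTCGCGC, TTTCCCGC and TTTGCCGC were searched on both strands in windows from 250 bases before to 50 bases after each start. No window of Gdpd3, Gdpd1, Gde1, Gdpd2 or Gdpd4 held one (0 of 6 windows), beside 2.26% of all 32851 windows (744). The Gdpd3 window held 7 CG pairs, the median of all windows, and those of Gde1 and Gdpd1 held 22 and 25. The search covers these letters in these windows and says nothing of binding.

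The genes most like Gdpd3 were ranked by Pearson correlation of relative log2 level over the 12 arrays, among 20571 other genes. The arrays fall into wild type and the rest, so r mostly reflects that step, and it is given as a description. The list depends on the measure: by Spearman's rho 2 of the 8 genes stayed among the 8 most alike, and after quantile normalization 7. Plcxd1, which has a phosphatidylinositol phospholipase C domain, came first (r = 0.987 overall and 0.772 after removing group means). It had 1.84, 1.90, 1.18 and 1.97 in wild type and -1.48 to -0.43 elsewhere. Sdc4 (r = 0.982), a cell surface proteoglycan, lay between 5.32 and 5.87 in wild type and between 3.09 and 3.74 elsewhere. Arhgap22 (r = 0.977) lay between 2.42 and 3.50 in wild type and between -2.50 and -0.99 elsewhere. Lyve1 (r = 0.974), a hyaluronan receptor of lymphatic and liver sinusoidal endothelium, lay between 0.64 and 1.56 in wild type and between -2.04 and -1.10 elsewhere. The other 4 of the 8 most alike were unnamed or uncharacterised transcripts (r = 0.97 to 0.986). After group means were removed, r with Gdpd3 was between 0.418 and 0.772 for the 8 genes. Since Gdpd3 itself was chosen for its fall, the lower values of these genes restate that choice.

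**Figure D5:**
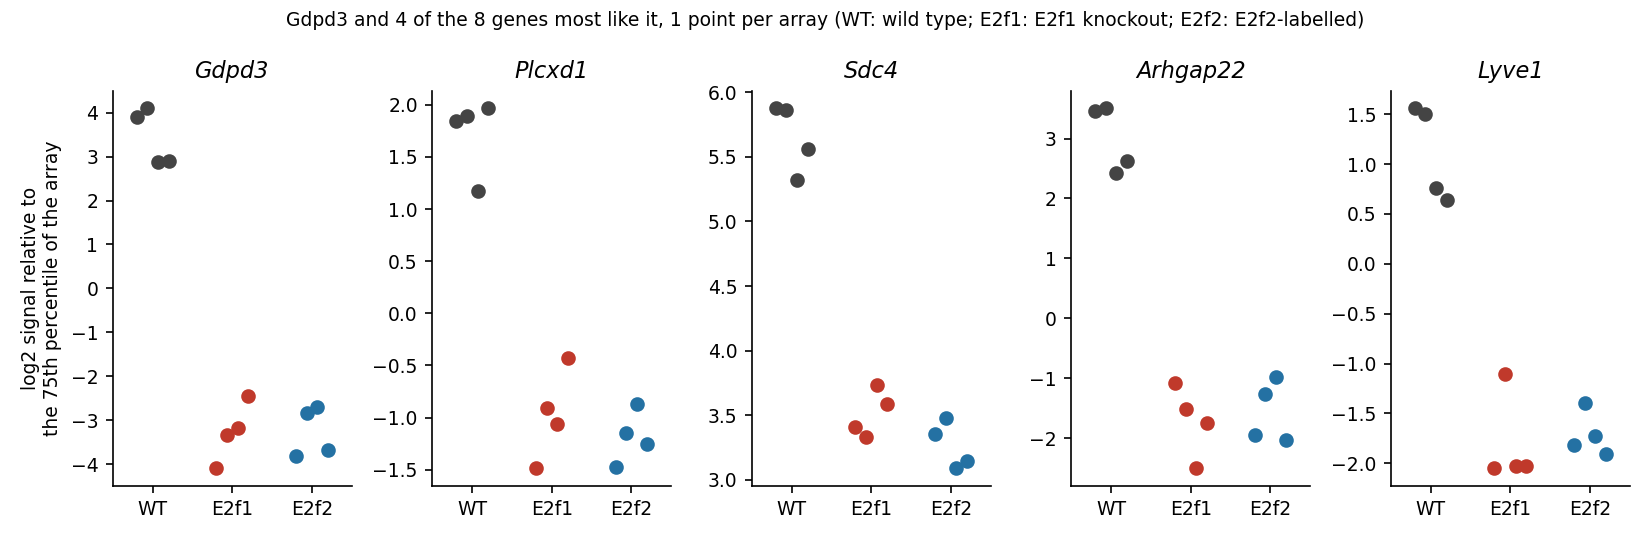
Relative log2 level of Gdpd3 and of 4 named genes among the 8 most correlated with it, with 1 point per mouse in each of the 3 groups and a separate axis per gene. Each gene has a gap between the 4 wild type mice and the 8 others, and in Gdpd3, Sdc4, Arhgap22 and Lyve1 wild type replicates 3 and 4 lie below replicates 1 and 2.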

How the data were processed

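The deposited scanner files hold 1 array per mouse. The submitters' processing notes name Agilent Feature Extraction 10.7.3.1. Per the file headers the authors' processed signal is a linear intensity from which background had been subtracted, and probe positions are in mm9. The authors also deposited a matrix of log2 values, used as an alternative, whose columns share a median of 3.84 and correlate with the scanner values at 0.998 or more, so its scale is log2 of the processed signal after between-array scaling. The sources used here do not state its method. Labelling started from 50 ng of RNA, per the labels.

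Control spots and spots with outlier marks were removed, and replicate spots of a probe averaged (59305 spots, 55681 probes). Each array's 75th percentile was subtracted on the log2 scale. Testing required a probe to be well above background in 3 or more of the 4 arrays of some group (28434 probes). Names came through RefSeq accessions for 28026 probes, symbols for 3418, synonyms for 295 and the files for 23942. The brightest tested probe stood for a gene, and 95 genes lacked a value on some array and were fitted without it. One limma 3.58.1 fit (R 4.3.3, data.table, version 1.17.8) covered 12 arrays without covariates. Benjamini-Hochberg adjusted p under 0.05 over 20572 genes was called. The fit was tested on simulated data. The number of arrays limits the precision. Slide equals replicate number. Deviations of same-slide arrays correlated above 0.1 in 10 of 12 pairs (r = 0.0413 to 0.424). A pairing would need all 12, so the fit has no block, but arrays of a slide may share an effect, and the fit with the slide as a block is given among the alternatives.

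The members and gene lists were chosen with earlier results of these data known, from general knowledge. Named genes are the members, Gdpd4, Gpcpd1, Enpp2, Napepld, Faah and Gpld1, up to 3 called genes per pathway list with non-overlapping groups and the smallest adjusted p, the 8 genes most correlated with Gdpd3, 3 neighbours on each side and E2f1 and E2f2. Spn, Tmc5, Trim12a, Klrb1b, the Lpar genes and the single marker genes are named outside this rule, after their values were seen. Promoters are RefSeq's (GRCm38.p6), with windows for 5 of 7 family genes. Alternatives were other scalings, background corrections, filters and probe rules, the deposited matrix, array weights, the slide as a block and leaving out each array.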

Additional observations from a re-analysis of the deposited data

Results flagged for a closer look

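A gap test that chance passes in about 1 of 20 groups was used, and the number of groups screened is not given here. The count of cases therefore cannot be set against chance. In 11 cases 1 mouse stood apart from the other 3 of its group. Among family genes this was Gde1 in E2f1 knockout replicate 1, at 2.29 against 2.57 to 2.62, which lies nearer to wild type. Wild type replicate 3 accounted for 4 of them: Gpc3 at -2.21 against 3.35 to 4.25, Plcxd1 at 1.17 against 1.84 to 1.96, Plpp3 at 3.81 against 3.36 to 3.39 and Ypel3 at 4.48 against 4.07 to 4.11. In all 4 genes this mouse lies toward the mean levels of the other groups, as it does in Gdpd1, although Ypel3 did not pass the test against wild type. The remaining values were Napepld at -2.42 in E2f2-labelled replicate 4 (others -2.65 to -2.64), Gpd1 at 7.60 in E2f1 knockout replicate 3 (6.75 to 6.89) and Aqp9 at 2.12 in E2f1 knockout replicate 1 (1.94 to 1.97). Lipc was at -1.16 in wild type replicate 2 (0.29 to 0.49), Lyve1 at -1.10 in E2f1 knockout replicate 2 (-2.04 to -2.02) and Ppp4c at 1.51 in E2f2-labelled replicate 1 (1.64 to 1.67). Daglb was the pathway gene whose level differed between E2f2-labelled and E2f1 knockout livers, by 0.96 (limma adjusted p = 0.0114).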

How the results depend on the processing

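Gde1 and Gpcpd1 kept their direction and call against wild type in every alternative run, and Gdpd3 its direction. With normexp correction Gdpd3 differed by -4.319 and -4.262, and Gdpd5 by 0.015 and 0.064. Gdpd1 in E2f1 knockout livers was -1.798 with no filter on dim probes (adjusted p = 0.0754) and -2.525 to -1.447 over the arrays left out, and in E2f2-labelled livers -1.582 with array weights (adjusted p = 0.00909) and -1.887 to -0.809. Between E2f2-labelled and E2f1 knockout livers Gdpd3 was -0.005 with quantile normalization and with matrix values, and over the arrays left out -0.268 to 0.279, with Gdpd5 at -0.041 to 0.241 and Gde1 at -0.032 to 0.153. Gdpd5 ran from -0.261 to 0.083 in E2f2-labelled livers over the arrays left out.

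Genes called in E2f1 knockout livers numbered 2691 with no filter, which tests more genes, and 2516 to 4853 over the arrays left out. In E2f2-labelled livers they numbered 6460 with array weights and 2562 to 5135, and between the E2f1 knockout and E2f2-labelled groups 213 with normexp, 202 with detection on all 12 arrays, 510 with array weights and 235 to 364. Pathway genes called were 18 with no filter and 17 to 36 over the arrays left out in E2f1 knockout livers, and 20 to 42 in E2f2-labelled livers. With the slide as a replicate block the counts were 5441, 5909 and 414 against 4173, 4183 and 328, pathway genes 39 and 46 against 31 and 33, and no member's call changed (Gdpd1 adjusted p = 0.0425 and 0.146). Beyond the members, 1706 values were rerun, nearly all for single differences of 39 genes: 1612 kept direction and call, 62 lost a call, 14 gained one, 17 changed sign, and the list of genes most like Gdpd3 kept 2 of 8 under Spearman's rho.

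The sign changes were Enpp2 in E2f1 knockout livers (-0.233 to 0.009 over the arrays left out), Ypel3 there (-0.010 with quantile normalization, -0.011 with matrix values), Tbx6 there (-0.349 to 0.068 over the arrays left out) and in E2f2-labelled livers (-0.043 with median centring, -0.019 with normexp, and -0.073 to 0.179 over the arrays left out), and Ppp4c in E2f2-labelled livers (-0.060 with quantile normalization, -0.032 with median centring, -0.055 with normexp, -0.057 with matrix values, -0.041 to 0.072 over the arrays left out). The cause was not tested. Gdpd2 and Gdpd4 gave no value, since their signal stayed at background.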
